A study of Arabidopsis with 14 samples.

Results

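Untreated seedlings of the line labelled AtC3H3 OX were compared with untreated wild-type (WT) seedlings of Arabidopsis thaliana, in 6 of the 14 mRNA-Seq libraries of the series. The 6 libraries were chosen by their labels, 2 from the line and 4 from WT, and they cover 20056 of the 37980 genes listed, namely those that reached 1 FPKM in 2 or more of the 6. FPKM is the number of sequenced fragments scaled by transcript length and by the mapped total. All plants had the Col-0 background and were whole seedlings of 10 days, raised on sucrose-containing agar medium with 8 h of light and 16 h of dark. The line carries the AtC3H3 coding region with an HA tag behind a modified CaMV 35S promoter, which is active in most tissues, and the labels do not say which of the independent transgenic lines was sequenced. The WT libraries form 2 sets of 2 replicates, called WT set 1 and WT set 2 here, and the labels assign neither set to the line. The methods call the replicates biological. If they shared a plate or a harvest, the p-values measure only the spread between such samples. The remaining 8 libraries are seedlings of WT, of this line and of a line labelled AtC3H26 OX treated with 150 mM NaCl, and untreated seedlings of the AtC3H26 line. For WT and AtC3H3 OX the methods give NaCl exposures of 1, 2 or 4 h, with RNA of these treatments combined in a library.

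AtC3H3 belongs to the CCCH zinc-finger proteins, many of which bind RNA, and within them to the group without the tandem zinc-finger pair that defines the TZF proteins. Proteins of this kind can act on transcripts after transcription, and some degrade RNA directly. A comparison of unstressed seedlings asks which transcripts differ between the line and WT before any salt is applied. In a bulk seedling library, fewer cells of a type and less RNA per cell cannot be told apart.

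The transcript of AtC3H3 itself (AT1G04990, chromosome 1) was examined first. It had 4.2 and 4.86 FPKM in the AtC3H3 OX-labelled libraries, compared with 6.46 and 5.6 in WT set 1 and 5.72 and 5.37 in WT set 2. Both libraries of the line lay below all 4 WT libraries, so the gene named in the label was not higher in them. The mean was 4.53 ± 0.464 FPKM (SD, n = 2) in the line and 5.79 ± 0.472 FPKM (SD, n = 4) in WT. The difference in log2(FPKM + 1) was -0.30 (standard error 0.10) and did not pass the test (limma, Benjamini-Hochberg adjusted p = 0.4). For this reason the group is called the libraries labelled AtC3H3 OX throughout. With NaCl, AtC3H3 had 14.8 and 13.5 FPKM in the line and 20.7 and 23 FPKM in WT (difference -0.59, adjusted p = 0.058, limma). The study selected its overexpressing lines by RT-PCR of AtC3H3, which is a different measure from the FPKM given here. AtC3H26 (AT2G32930), the paralog of AtC3H3, had 3.46 and 3.05 FPKM in the untreated libraries of the line, against 2.94 and 3.53 in WT set 1 and 2.81 and 2.57 in WT set 2. Its values overlapped between the groups. Among the 11 tested genes of a list of CCCH zinc-finger relatives, which includes AtC3H26, none differed from each WT set. AtC3H3 was not counted in that list, and it did not differ from each set either (adjusted p = 0.81, limma).

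The 6 libraries were alike in depth and in their overall distributions, but the WT sets differed from each other. Relative depth, read from the steps that single fragments make in low FPKM values, ranged from 0.959 to 1.34 with replicate 1 of WT set 1 at 1, and the absolute number of fragments is unknown. Summed over all genes, each library held between 672979 and 715491 FPKM. Pearson's r between libraries, taken across genes that are no independent replicates, was 0.986 within the line, 0.983 within WT set 1 and 0.984 within WT set 2. It was 0.978 to 0.982 between the line and WT set 1 and 0.962 to 0.963 between the line and WT set 2. Between replicates, the log2 values of genes at 20 to 40 FPKM differed with a spread (scaled median absolute deviation) of 0.08 in the line, 0.09 in WT set 1 and 0.16 in WT set 2. WT set 2 differed from WT set 1 in 1824 genes (limma, adjusted p under 0.05), which is 9.09% of the genes tested. Shoot and root transcripts were both present, as whole seedlings have them. All 18 photosynthesis genes and all 14 root markers on the lists were tested, whereas none of 9 seed storage genes reached 1 FPKM in any of the 6 libraries.

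How many genes passed depended on how the WT sets entered the test. Against all 4 WT libraries pooled, the AtC3H3 OX-labelled libraries were higher for 4 genes and lower for 5 (adjusted p under 0.05 from limma), which is 0.0449% of the genes tested, and 2032 genes had an unadjusted p under 0.05. The 4 higher genes were PI, AT2G07684, AT1G08937 and AT3G13403. All 4 were under 1 FPKM in every WT library and passed the filter only through the 2 libraries of the line. When every library had to reach 1 FPKM, no gene was called higher in the pooled comparison. Against WT set 1 alone, 140 genes were higher and 265 lower, in all 2.02% of the genes tested. Against WT set 2 alone, 1607 genes were higher and 1088 lower, in all 13.4%. These comparisons share the 2 libraries of the line. In the pooled comparison the difference between the WT sets counts as error, and when the sets were entered as 2 groups of the same fit, 1577 genes passed.

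The strictest reading asks that the line differ from each WT set in the same direction. In a single fit with 3 groups, the larger of the 2 p-values was kept for each gene and then adjusted. By this test the line was higher for 9 genes and lower for 24, which is 0.165% of the genes tested, with 0.0449% called higher and 0.12% called lower. The 33 genes include all 9 of the pooled comparison, and 29 of them are protein-coding. All 33 had both libraries of the line outside the range of the 4 WT libraries, which a call in this test nearly requires. Of all genes tested, 10.4% lay outside that range on the higher side and 14.3% on the lower side. Leaving out any library of the line or of WT set 1 reduced the 33 calls to between 5 and 7, whereas leaving out a library of WT set 2 raised them to 58 or 67. In this test PI, DIN10 and AT2G07684 were called under every alternative that could be run for them. PI and AT2G07684, and also AT1G08937 and AT3G13403 among the other higher calls, passed the filter only through the 2 libraries of the line. The alternative of 1 FPKM in every library could therefore not be run for any of them. Each of the other calls was lost under some of its alternatives.

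PISTILLATA (PI, AT5G20240) and DIN10 (AT5G20250), neighbouring protein-coding genes on chromosome 5, showed the clearest differences in opposite directions. PI encodes a MADS-domain transcription factor that specifies petals and stamens and is nearly silent in WT seedlings. PI measured 15.4 and 15.5 FPKM in the AtC3H3 OX-labelled libraries, with 0.553 and 0.686 in WT set 1 and 0.313 and 0.103 in WT set 2. Both libraries of the line were far above every WT library. The difference in log2(FPKM + 1) was 3.35 (standard error 0.10) against WT set 1 and 3.77 (standard error 0.13) against WT set 2, and PI differed from each set (limma, adjusted p = 0.00036). This scale understates the ratio for a gene that is below 1 FPKM in WT.

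DIN10 (DARK INDUCIBLE 10) encodes a raffinose synthase family protein whose transcript accumulates in darkness and under sugar shortage. It reached 7.7 and 7.46 FPKM in the AtC3H3 OX-labelled libraries, against 171 and 168 in WT set 1 and 29 and 32.6 in WT set 2. Every WT library was above the line, although the WT sets themselves lay far apart. The difference in log2(FPKM + 1) was -4.31 (standard error 0.04) against WT set 1 and -1.89 (standard error 0.09) against WT set 2 (limma, adjusted p = 0.0002 for a difference from each set). Because of the gap between the WT sets, the pooled comparison did not call DIN10 (difference -3.10, standard error 0.81, adjusted p = 0.3).

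**Figure D1:**
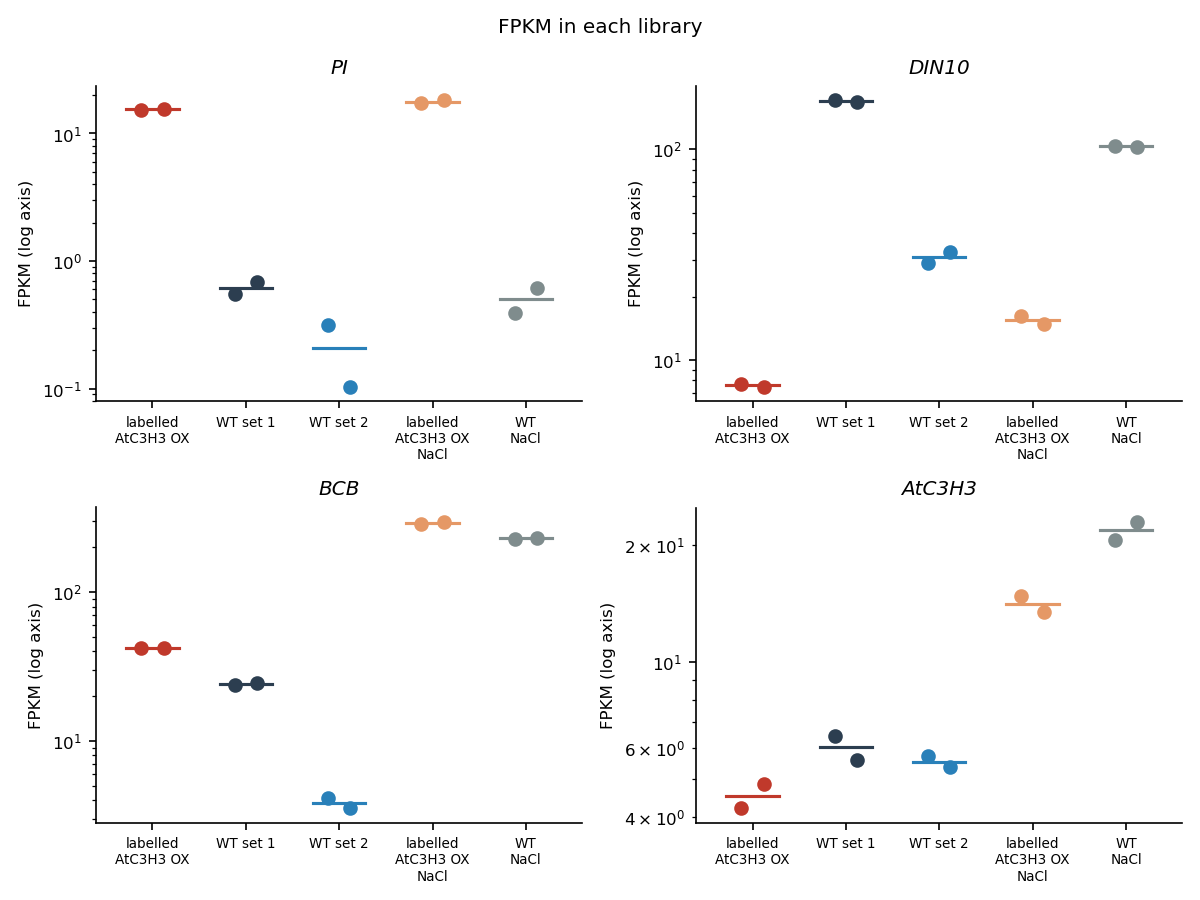
FPKM on a log axis of PI, DIN10, BCB and AtC3H3 in each library of the untreated line, the 2 untreated WT sets, and the line and WT with 150 mM NaCl. Points are libraries and bars are group means (n = 2). PI is at 15.4 and 15.5 FPKM in the untreated line and under 1 FPKM in every WT library, whereas DIN10 is at 7.7 and 7.46 FPKM in the line and at 29 FPKM or more in every untreated WT library.

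In the libraries treated with NaCl, which share no sample with the untreated comparison, the pair differed in the same directions. The study already lists PI as up-regulated and DIN10 as down-regulated from these NaCl libraries, and the pair was named here with that known. PI had 17.2 and 18.2 FPKM in the line and 0.392 and 0.611 FPKM in WT (difference 3.64, standard error 0.12, adjusted p = 0.0071 from limma). DIN10 had 16.2 and 14.9 FPKM in the line and 104 and 103 FPKM in WT (difference -2.66, standard error 0.05, adjusted p = 0.0014 from limma). In this comparison 0.893% of the genes tested passed, 0.384% higher and 0.509% lower in the line. The untreated AtC3H26 line had 0.321 and 0.505 FPKM of PI and 85.9 and 86.9 FPKM of DIN10. Its values lay with WT and not with the line labelled AtC3H3 OX, and both genes differed between the lines (PI difference 3.54, adjusted p = 0.00034, and DIN10 difference -3.35, adjusted p = 4.6e-05, both from limma). In that comparison of the lines 7.79% of the genes tested passed.

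The genes around the pair, taken in the order of the TAIR10.1 annotation, did not follow it, apart from BCB. Of the 5 listed genes on either side and the 1 between them, 8 were tested and only BCB differed from each WT set. BCB (AT5G20230) encodes a blue copper-binding protein induced by stress and lies on the far side of PI from DIN10. It had 41.8 and 42 FPKM in the AtC3H3 OX-labelled libraries, compared with 23.7 and 24.6 in WT set 1 and 4.14 and 3.51 in WT set 2. The line was highest, and WT set 1 was well above WT set 2. The difference was 0.77 (standard error 0.04) against WT set 1 and 3.16 (standard error 0.09) against WT set 2 (limma, adjusted p = 0.031 for each set). The call was lost under 6 of 12 alternatives. With NaCl, BCB was again higher in the line, at 286 and 297 FPKM against 227 and 232 FPKM (difference 0.34, adjusted p = 0.032 from limma). The other 7 tested neighbours, among them SPS1F for sucrose-phosphate synthase and HHP1 for a heptahelical membrane protein, had differences between -0.11 and 0.12 against WT set 1 and between -0.16 and 0.41 against WT set 2. The remaining 3 neighbours, AT5G03115, AT5G00425 and AT5G20260, stayed below 1 FPKM in all 6 libraries and were not tested.

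**Figure D2:**
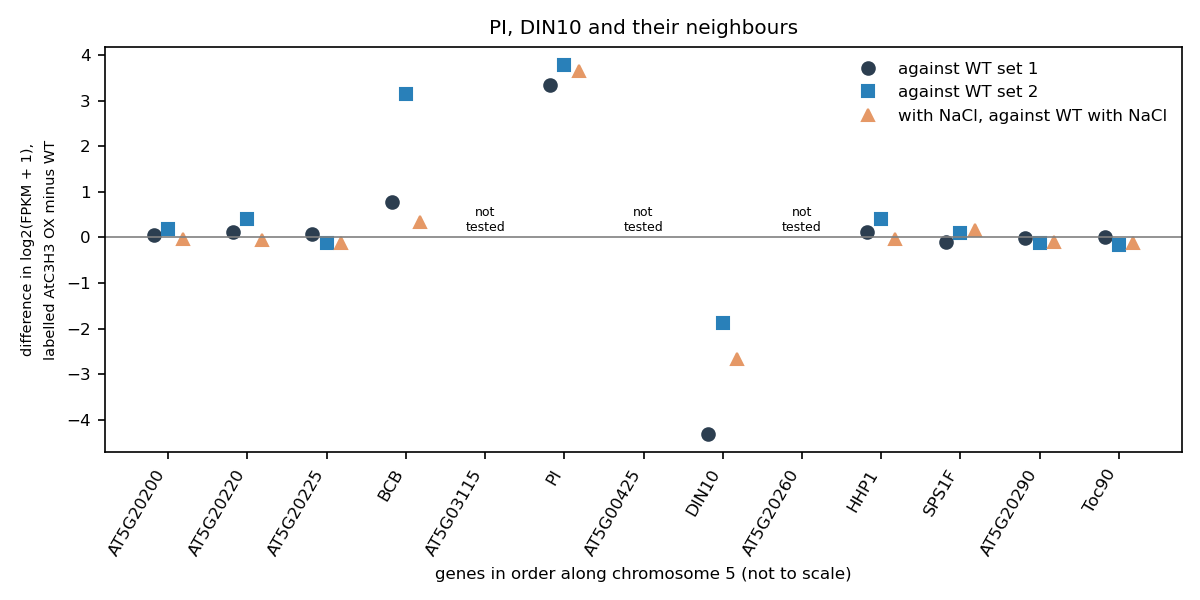
Difference in log2(FPKM + 1) between the libraries labelled AtC3H3 OX and WT for PI, DIN10 and the listed genes around them, in their order along chromosome 5 (not to scale). Symbols give the difference against WT set 1, against WT set 2 and, for the NaCl libraries, against WT with NaCl. PI stands near 3.35 to 3.77, DIN10 at -1.89 to -4.31, and the other genes apart from BCB lie between -0.16 and 0.41.

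Of 15 matched genes on a list of floral organ identity genes, 5 were tested and PI alone differed from each WT set. Against WT set 2 alone 4 of the 5 were higher and 1 was lower, where 8.01% of all genes were called higher. Apart from PI these were SEP3, SEP4 and NAP, whose values in the line overlapped with WT set 1. SEP3, a MADS-domain cofactor of floral organ identity, had 5.28 and 5.09 FPKM in the line, with 5.24 and 5.5 in WT set 1 and 2.21 and 1.77 in WT set 2. APETALA3, whose protein pairs with PI in flowers, stayed below the filter in these libraries. APETALA2, which is also active outside flowers, measured 8.09 and 7.62 FPKM in the line, with 8.44 and 8.98 in WT set 1 and 12.8 and 12.7 in WT set 2. It was lowest in the line but differed by test from WT set 2 alone (difference -0.63, adjusted p = 0.0066 from limma).

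Of the 24 genes that were lower than each WT set, AT5G46900, AT5G46890 and AT4G12510 encode small cysteine-rich proteins of the lipid-transfer protein superfamily. AT5G46900 reached 15.9 and 17.4 FPKM in the AtC3H3 OX-labelled libraries, against 37.1 and 33.8 in WT set 1 and 34.7 and 33.6 in WT set 2. Its difference was -1.04 (standard error 0.07) against WT set 1 and -0.99 (standard error 0.07) against WT set 2 (limma, adjusted p = 0.0074 for each set). Here the 2 WT sets were at one level and the line was at about the same distance from both.

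AT5G46890, the neighbour of AT5G46900, had 23.6 and 21.2 FPKM in the line, compared with 44.3 and 40 in WT set 1 and 43.6 and 48.6 in WT set 2 (adjusted p = 0.023 for each set, limma). AT4G12510 measured 4.05 and 4.49 FPKM in the line, with 9.23 and 10.1 in WT set 1 and 10.1 and 11.3 in WT set 2 (adjusted p = 0.023 for each set, limma). In both, every library of the line was below every WT library. Genes of this family have close copies, and how the FPKM estimates divided fragments between copies was not tested. All 3 were lower still in the untreated AtC3H26 line, with 10.8 and 8.47 FPKM of AT5G46900 and 12.6 and 14.5 FPKM of AT5G46890. The values of both lines were thus below those of WT, and the AtC3H26 line was not tested against WT here.

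The thalianol gene cluster, 4 neighbouring genes on chromosome 5 that make a root triterpene, had lower values throughout. CYP705A5 and CYP708A2, cytochrome P450 enzymes of the cluster, were among the 24 genes, and THAS1 and the acyltransferase gene AT5G47980 were then added after those values were seen. CYP705A5 (AT5G47990) reached 12.3 and 10.9 FPKM in the AtC3H3 OX-labelled libraries, against 24 and 22.1 in WT set 1 and 29.3 and 26.1 in WT set 2. The line was below all WT libraries, with a difference of -0.93 (standard error 0.08) against WT set 1 and -1.19 (standard error 0.10) against WT set 2 (limma, adjusted p = 0.023 for each set).

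CYP708A2 (AT5G48000) had 9.57 and 9.24 FPKM in the line, compared with 14.6 and 14.6 in WT set 1 and 16.1 and 16.7 in WT set 2 (adjusted p = 0.04 for each set, limma). THAS1 (AT5G48010), which encodes thalianol synthase, measured 5.77 and 6.27 FPKM in the line, with 10.9 and 9.83 in WT set 1 and 13.5 and 14.5 in WT set 2. It missed the threshold narrowly (adjusted p = 0.053 for each set, limma). AT5G47980 had 0.599 and 0.787 FPKM in the line and between 1.96 and 2.46 FPKM in WT (adjusted p = 0.095 for each set, limma). All 4 genes had both libraries of the line below all WT libraries, as had 14.3% of all genes tested. Their median difference was -0.81 against WT set 1 and -0.998 against WT set 2, beside -0.03 and 0.01 over all genes tested.

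The untreated AtC3H26 line did not share this. It had 29.8 and 26 FPKM of CYP705A5 and 13.1 and 13.5 FPKM of THAS1. All 4 cluster genes were lower in the line labelled AtC3H3 OX than in the AtC3H26 line (limma, adjusted p from 0.0014 to 0.024). Of the 20056 genes tested, 542 were called lower in that comparison. The marneral cluster, another root triterpene cluster, was looked at after the thalianol genes. All 3 of its tested genes were also below every WT library, as were 14.3% of all genes tested. MRN1, for marneral synthase, reached 0.58 and 0.692 FPKM in the line, against 0.944 and 1.11 in WT set 1 and 2.27 and 2.53 in WT set 2. None of the 3 differed from each WT set. All 3 were lower than WT set 2 (limma, adjusted p from 0.0095 to 0.013), where 5.42% of all genes were called lower. With NaCl, none of the 7 cluster genes passed the test, with a median difference of -0.35 for the thalianol genes and 0.01 for the marneral genes.

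**Figure D3:**
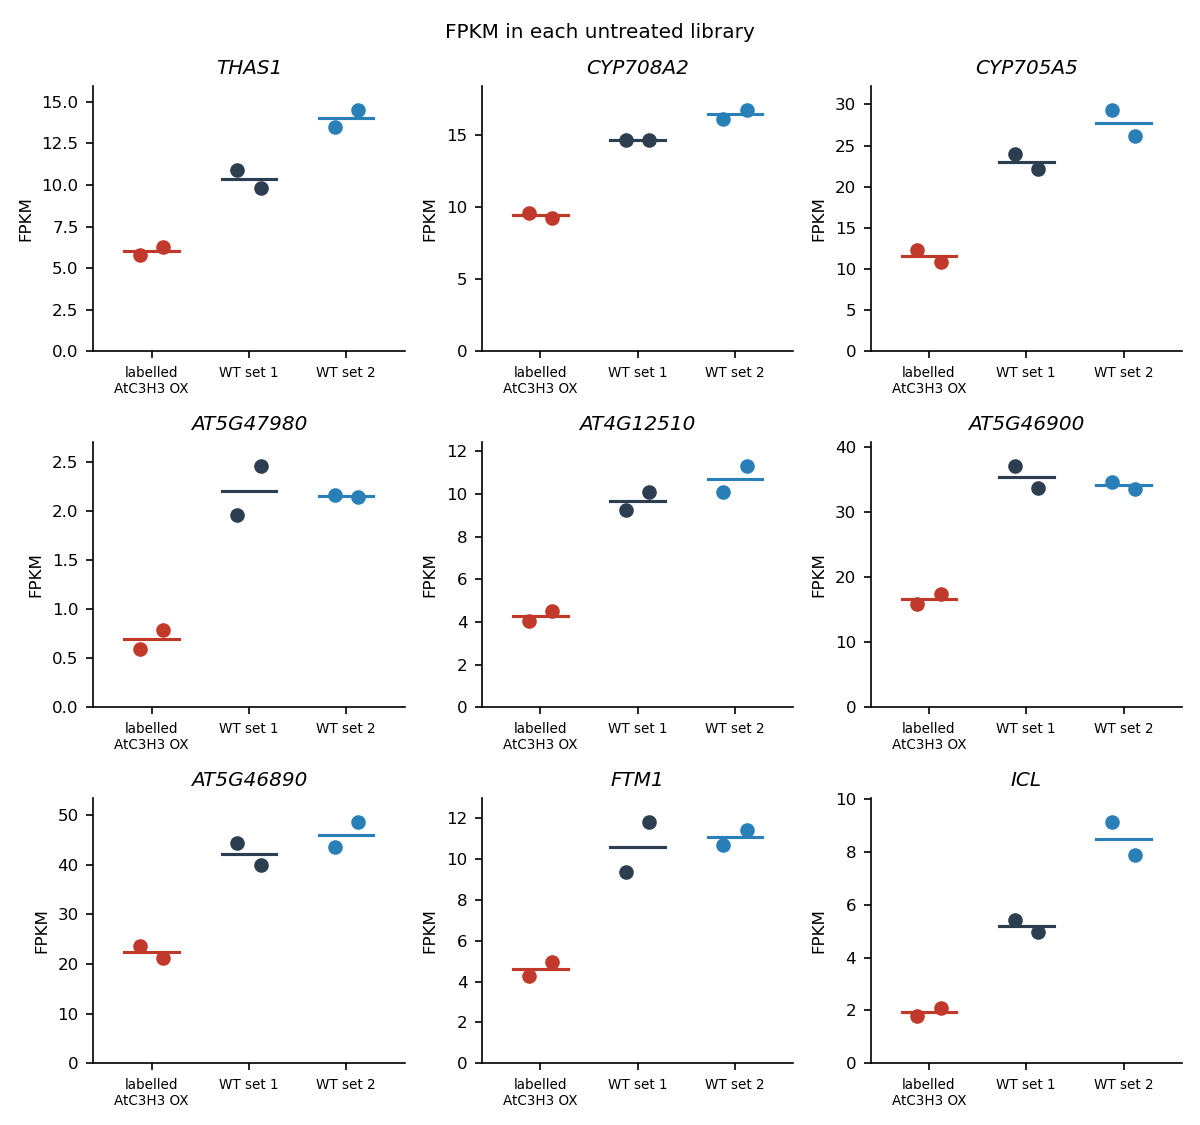
FPKM of the thalianol cluster genes (THAS1, CYP708A2, CYP705A5, AT5G47980), of 3 lipid-transfer-like genes, of FTM1 and of ICL in each untreated library. Points are libraries and bars are group means (n = 2). In each panel both libraries labelled AtC3H3 OX lie below all 4 WT libraries, for example 15.9 and 17.4 FPKM of AT5G46900 against 33.6 to 37.1 FPKM.

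Of 14 root markers tested, 7 had both libraries of the line below all WT libraries, as had 14.3% of all genes, and none had both above, and their median difference was -0.23 against WT set 1 and -0.34 against WT set 2. None differed from each WT set, 1 was lower than WT set 1 and 4 were lower than WT set 2, where 1.32% and 5.42% of all genes were called lower. CASP1, a Casparian strip protein of the endodermis, had 20.4 and 19.8 FPKM in the line, compared with 28.7 and 27 in WT set 1 and 42.1 and 36.2 in WT set 2. SCARECROW, SHORT-ROOT and MYB36, regulators of the root ground tissue, overlapped between the groups. The summed FPKM of the 14 markers was 117 in both libraries of the line and between 140 and 151 in the WT libraries, and none of the markers was at 0. The untreated AtC3H26 line, at 129 and 124, was also below every WT library. In the line labelled AtC3H3 OX the lower sum lay beside the lower values of the triterpene and lipid-transfer-like genes, and its part in them was not tested.

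AGP3, RCI3 and BGLU21, also among the 24, were named after their values were seen. AGP3, an arabinogalactan protein, had 15.7 and 14.8 FPKM in the line and between 22.6 and 23.4 FPKM in the 4 WT libraries. RCI3, a peroxidase, had 34.6 and 35.6 FPKM in the line and between 49.1 and 53.6 FPKM in WT. BGLU21, a beta-glucosidase of root endoplasmic reticulum bodies, had 63 and 60.7 FPKM in the line and between 84.3 and 102 FPKM in WT. These were small differences with no overlap (adjusted p = 0.037, 0.031 and 0.045 for each set, limma). The call was lost under 7 of 12 alternatives for AGP3, 6 for RCI3 and 7 for BGLU21. BGLU21 was again lower with NaCl, at 83.4 and 83.1 FPKM against 132 and 126 FPKM (adjusted p = 0.021, limma). The root iron transporter IRT1 measured 0.744 and 0.946 FPKM in the line, with 5.57 and 4.72 in WT set 1 and 2.43 and 2.53 in WT set 2. It was lowest in the line by test against WT set 1 (adjusted p = 0.012) and against WT set 2 (adjusted p = 0.014), but not for each set in the joint fit (adjusted p = 0.073, limma).

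Metabolic enzymes were lower than each WT set as well. ICL (AT3G21720) encodes isocitrate lyase of the glyoxylate cycle, which turns stored lipid into sugar in young seedlings. It reached 1.78 and 2.08 FPKM in the AtC3H3 OX-labelled libraries, against 5.43 and 4.96 in WT set 1 and 9.12 and 7.88 in WT set 2. The difference was -1.08 (standard error 0.11) against WT set 1 and -1.70 (standard error 0.12) against WT set 2 (limma, adjusted p = 0.031 for each set). ICL was also lower with NaCl, at 1.84 and 2.25 FPKM against 5.23 and 5.63 FPKM (adjusted p = 0.043, limma), and the untreated AtC3H26 line, at 1.85 and 1.5 FPKM, was as low as this line. The other 10 tested genes of the glyoxylate cycle and lipid mobilisation did not differ from each WT set.

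FTM1 (AT1G43800), an acyl carrier protein desaturase gene, had 4.28 and 4.97 FPKM in the line, compared with 9.35 and 11.8 in WT set 1 and 10.7 and 11.4 in WT set 2 (adjusted p = 0.045 for each set, limma). SDR4, a short-chain dehydrogenase, measured 9.44 and 8.74 FPKM in the line, with 17.2 and 17.3 in WT set 1 and 19.3 and 20.8 in WT set 2 (adjusted p = 0.017, limma). NIC3, a nicotinamidase, had 5.08 and 4.81 FPKM in the line and between 8.2 and 8.82 FPKM in WT, and its adjusted p of 0.05 was under the threshold only before rounding. All 3 separated the line from both WT sets, with WT sets close to each other. The call was lost under 7 of 12 alternatives for FTM1, 5 for SDR4 and 9 for NIC3. FTM1 was lower still in the untreated AtC3H26 line, at 2.45 and 2.08 FPKM, whereas SDR4 was at 22.1 and 19.5 FPKM there.

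Early enzymes of oxylipin and jasmonate synthesis were among the genes lower than each WT set. LOX2, a chloroplast lipoxygenase, reached 36.9 and 35.2 FPKM in the AtC3H3 OX-labelled libraries, against 68.1 and 68.5 in WT set 1 and 49 and 53 in WT set 2. AOC2, an allene oxide cyclase, had 67.5 and 72.4 FPKM in the line and between 97.9 and 104 FPKM in WT. DOX1, an alpha-dioxygenase that oxidises fatty acids, had 30.6 and 31.8 FPKM in the line, compared with 48.3 and 46.9 in WT set 1 and 66.2 and 63.6 in WT set 2. Each of the 3 was below WT without overlap (adjusted p = 0.05, 0.034 and 0.02 for each set, limma). The call was lost under 8 of 12 alternatives for LOX2, 7 for AOC2 and 5 for DOX1. AOS and AOC1, which act between and beside them, were also below every WT library, at 49 and 50.4 FPKM and at 20.5 and 19.9 FPKM, but did not differ from each set (adjusted p = 0.19 and 0.79, limma). Over the 19 tested jasmonate genes the median difference was -0.19 against WT set 1 and 0.25 against WT set 2, so the list as a whole had no common direction. With NaCl, LOX2 and AOC2 differed from WT by 0.00 and -0.01 (standard errors 0.03 and 0.03).

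Of the 9 genes that were higher than each WT set, STZ and NUDT21 varied widely between the WT sets. STZ (AT1G27730), a zinc-finger repressor induced by salt and cold, measured 35 and 33.3 FPKM in the AtC3H3 OX-labelled libraries, with 18.9 and 18 in WT set 1 and 1.89 and 2.06 in WT set 2. The line was highest, and the distance between the WT sets exceeded that between the line and WT set 1. The difference was 0.85 (standard error 0.05) against WT set 1 and 3.56 (standard error 0.09) against WT set 2 (limma, adjusted p = 0.017 for each set). NUDT21, a Nudix hydrolase, reached 48.9 and 46.3 FPKM in the line, against 23.1 and 21.3 in WT set 1 and 9.8 and 11 in WT set 2 (adjusted p = 0.0074 for each set, limma). With NaCl, neither gene passed the test, with differences of -0.04 for STZ and 0.34 for NUDT21.

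The list of touch and wounding genes shows how far such calls rest on the WT set used. Of 20 tested genes, 16 were higher than WT set 2, where 8.01% of all genes were called higher, and 3 were higher than WT set 1, where 0.698% were. In each comparison 1 gene of the list was lower. Their median difference was 2.15 against WT set 2 and 0.05 against WT set 1. TCH4, a cell wall enzyme that gave its name to the touch response, had 74.1 and 74.3 FPKM in the line, compared with 73.9 and 74.6 in WT set 1 and 4.67 and 4.81 in WT set 2. The line and WT set 1 were at one level, and WT set 2 alone was low. Between the WT sets themselves 16 of these genes were lower and 1 was higher in WT set 2. Of the 20056 genes tested, 1331 were lower and 493 higher there. CAF1a, a deadenylase that shortens poly(A) tails, followed the same order with 31.2 and 28.4 FPKM in the line, 18.9 and 20.7 in WT set 1, and 3.69 and 4.09 in WT set 2 (adjusted p = 0.08 for each set, limma). None of the 17 tested mRNA decay genes differed from each WT set, and their median difference was -0.02 against WT set 1 and 0.08 against WT set 2.

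AT3G12320 and AT2G36630 were also among the 9 genes. AT3G12320 (LNK3), which encodes a clock-associated protein, measured 39.9 and 39.2 FPKM in the AtC3H3 OX-labelled libraries, with 21.7 and 24.3 in WT set 1 and 26.8 and 25.4 in WT set 2. AT2G36630, a predicted membrane transporter, reached 26.8 and 27.3 FPKM in the line, against 17.7 and 17.2 in WT set 1 and 13.5 and 12 in WT set 2. Both were above every WT library, with an adjusted p of 0.05 that was under the threshold only before rounding (limma), and the call was lost under 10 of 12 alternatives for AT3G12320 and 7 of 12 for AT2G36630. In the untreated AtC3H26 line AT3G12320 was at 39.5 and 37.7 FPKM, close to the line labelled AtC3H3 OX. The morning clock gene LHY had 9.25 and 9.51 FPKM in the line, compared with 5.74 and 6.28 in WT set 1 and 4.98 and 4.82 in WT set 2 (adjusted p = 0.08 for each set, limma). Of 21 tested clock genes, 7 were above and 3 below all WT libraries, beside 10.4% and 14.3% of all genes, and none differed from each set.

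The floral repressor FLC (AT5G10140) measured 8.64 and 8.94 FPKM in the AtC3H3 OX-labelled libraries, with 4.95 and 5.28 in WT set 1 and 5.16 and 4.38 in WT set 2. It was higher than WT set 1 (difference 0.68, adjusted p = 0.025) and WT set 2 (difference 0.77, adjusted p = 0.0083), while the joint test gave an adjusted p of 0.075 (limma). The untreated AtC3H26 line was at the same level, with 8 and 8.62 FPKM. With NaCl the line had 7.42 and 6.61 FPKM and WT had 3.9 and 3.37 FPKM (difference 0.79, adjusted p = 0.063, limma). The floral integrator SOC1, which FLC represses, had 16.7 and 17.1 FPKM in the line and between 18 and 20.3 FPKM in WT (adjusted p = 0.78 for each set, limma). The line was lower in every library but not by test.

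Genes for aliphatic glucosinolates, the methionine-derived defence compounds of the cabbage family, mostly had higher values. Of 26 tested genes, 20 had both libraries of the line above all WT libraries and 1 had both below, beside 10.4% and 14.3% of all genes. None differed from each WT set by the joint test, 5 were higher than WT set 1, and 17 were higher and 1 was lower than WT set 2, where 0.698% and 8.01% of all genes were called higher. The median difference was 0.18 against WT set 1 and 0.59 against WT set 2, beside -0.03 and 0.01 over all genes.

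The entry enzymes of the pathway show the range. CYP79F1, which converts chain-elongated methionine to aldoximes, reached 33.2 and 34.2 FPKM in the AtC3H3 OX-labelled libraries, against 25.8 and 23.7 in WT set 1 and 11.5 and 13.1 in WT set 2. CYP83A1, the next enzyme, had 100 and 97.2 FPKM in the line, compared with 77.6 and 75.9 in WT set 1 and 47.9 and 43.3 in WT set 2. In both the line was highest and WT set 2 lowest, and both passed against each set taken alone (CYP79F1 adjusted p = 0.03 and 0.00053, CYP83A1 adjusted p = 0.018 and 0.00062, limma) but not in the joint test (adjusted p = 0.12 and 0.098). MAM1, which lengthens the methionine chain, measured 95.4 and 97 FPKM in the line, with 78.8 and 79.4 in WT set 1 and 46.6 and 45.5 in WT set 2. The regulator MYB29 reached 11.8 and 11.4 FPKM in the line, against 8.59 and 8.72 in WT set 1 and 5.98 and 6 in WT set 2, whereas the values of its relative MYB28 overlapped.

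FMO GS-OX4, a side-chain oxidase, went the other way, with 11.1 and 10.9 FPKM in the line, 15.1 and 17.9 in WT set 1, and 21.8 and 19.9 in WT set 2. With NaCl, where no sample is shared, 25 of the 26 genes had a positive difference, 9 were higher by test and none was lower. Over all genes tested, 51.1% had a positive difference there, 0.384% were called higher and 0.509% lower. CYP79F1 was at 31.2 and 31.3 FPKM in the line and at 14.7 and 14.1 FPKM in WT there (difference 1.06, adjusted p = 0.02, limma). The untreated AtC3H26 line was at 42 and 45.3 FPKM of CYP79F1, above the line labelled AtC3H3 OX. By test 10 of the 26 genes were lower in the line labelled AtC3H3 OX than in the AtC3H26 line, as were 542 of the 20056 genes tested. Of the 13 tested genes of indole glucosinolate synthesis, whose precursor is tryptophan, 2 were above and 3 below all WT libraries, beside 10.4% and 14.3% of all genes. By test 2 were lower than WT set 1, as were 1.32% of all genes. Against WT set 2, 2 were higher and 4 lower, beside 8.01% and 5.42% of all genes. The median differences were -0.09 against WT set 1 and 0.09 against WT set 2.

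**Figure D4:**
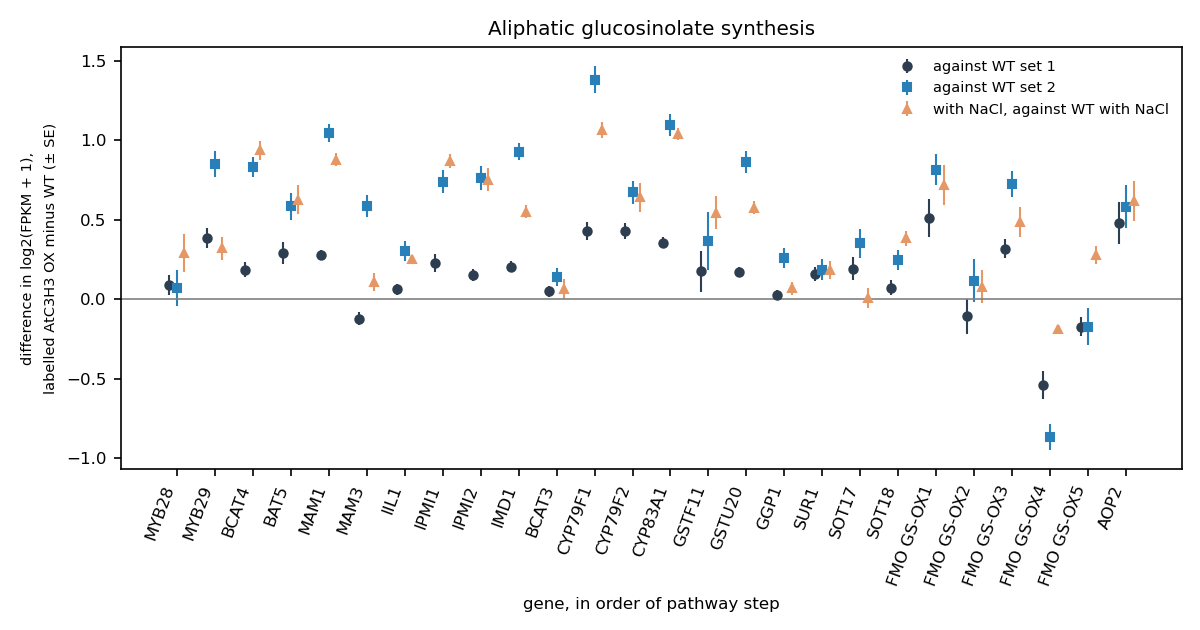
Difference in log2(FPKM + 1), with its standard error, between the libraries labelled AtC3H3 OX and WT for the 26 tested genes of aliphatic glucosinolate synthesis, from the regulators on the left through the enzymes to the side-chain genes on the right. Symbols give the comparison with WT set 1, with WT set 2 and, for the NaCl libraries, with WT with NaCl. Most genes lie above 0 in all 3, with medians of 0.18, 0.59 and 0.52, and FMO GS-OX4 lies below 0.

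Sulfur deficiency genes lay on the opposite side of WT. All 10 tested genes had a negative difference, and 9 had both libraries of the line below all WT libraries, as had 14.3% of all genes, with medians of -0.27 against WT set 1 and -0.68 against WT set 2. Against WT set 1, 3 were lower by test, and against WT set 2, 8 were, where 1.32% and 5.42% of all genes were called lower. Between the WT sets, 6 of the 10 were higher in WT set 2, as were 493 of the 20056 genes tested. GGCT2;1 (AT5G26220), which breaks down glutathione, had 7.48 and 7.65 FPKM in the AtC3H3 OX-labelled libraries, compared with 12.9 and 12.8 in WT set 1 and 26.2 and 26.7 in WT set 2. It was the 1 gene of the list that differed from each WT set (differences -0.70 and -1.68, adjusted p = 0.02, limma). The root sulfate transporter SULTR1;2 measured 15.5 and 14.7 FPKM in the line, with 20.4 and 20.4 in WT set 1 and 27.1 and 29.1 in WT set 2 (adjusted p = 0.091 for each set, limma). In the untreated AtC3H26 line the list had a median difference of 0.00 from the line labelled AtC3H3 OX. With NaCl none of the 10 genes passed, and the median was 0.11.

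Of 18 tested stress-responsive genes of the abscisic acid, cold and salt pathways, 10 had both libraries of the line below all WT libraries and 1 had both above, beside 14.3% and 10.4% of all genes. By test 8 were lower than WT set 1 and 9 were lower than WT set 2, where 1.32% and 5.42% of all genes were called lower. None was higher than either, 3 had a positive difference from WT pooled, and none passed the joint test, where 4 passed when genes had to reach 1 FPKM in every library. The median difference was -0.29 against WT set 1 and -0.36 against WT set 2.

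KIN1, a small hydrophilic cold-induced protein, reached 7.35 and 5.5 FPKM in the AtC3H3 OX-labelled libraries, against 14 and 13.6 in WT set 1 and 24.1 and 18.7 in WT set 2 (adjusted p = 0.077 for each set, limma). RD29A, a common reporter of this response, had 49.5 and 49.7 FPKM in the line, compared with 74.9 and 70.5 in WT set 1 and 138 and 116 in WT set 2 (adjusted p = 0.082 for each set, limma). COR47, a dehydrin, measured 130 and 129 FPKM in the line, with 162 and 165 in WT set 1 and 181 and 171 in WT set 2. These genes were lowest in the line and highest in WT set 2. The ion transporter genes SOS1, HKT1 and NHX1 overlapped between the groups. The untreated AtC3H26 line was lower again for KIN1, at 4.11 and 4.32 FPKM, and for COR47, at 99 and 110 FPKM. With NaCl, 1 of the 18 genes differed by test, RD29B, at 72.5 and 74 FPKM in the line and 45.7 and 47.5 FPKM in WT (adjusted p = 0.021, limma). Over all genes tested, 0.893% passed with NaCl.

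**Figure D5:**
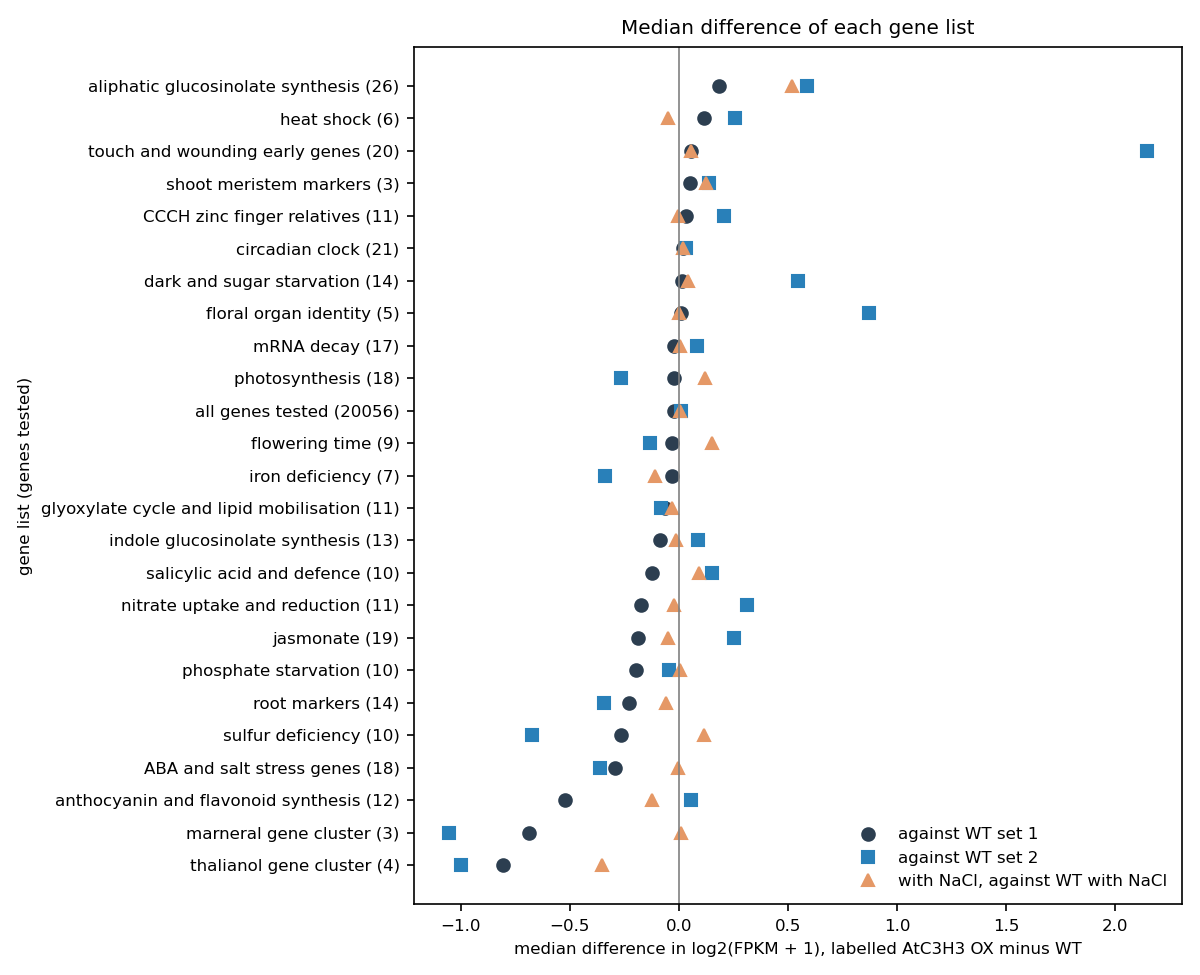
Median difference in log2(FPKM + 1) between the libraries labelled AtC3H3 OX and WT for each gene list, with the number of genes tested in brackets, against WT set 1, against WT set 2 and, for the NaCl libraries, against WT with NaCl. The touch and wounding list lies at 0.05 against WT set 1 and 2.15 against WT set 2, whereas the thalianol and marneral clusters, which were added after values were seen, lie below 0 against both sets.

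The remaining lists had few or no genes that differed from each WT set. Over all genes, 0.698% were called higher and 1.32% lower than WT set 1, and 8.01% higher and 5.42% lower than WT set 2. Between the WT sets, 1331 of the 20056 genes tested were lower and 493 higher in WT set 2. Of 12 tested anthocyanin and flavonoid genes, 4 were lower than WT set 1, 1 was lower and 1 higher than WT set 2, and 7 were lower in WT set 2 than in WT set 1. Of 11 nitrate genes, 7 were higher and 1 was lower than WT set 2, and 2 were lower and none higher than WT set 1. Of 14 genes of darkness and sugar starvation, 9 were higher and 1 was lower than WT set 2, none was higher and 1 was lower than WT set 1, and DIN10 was the 1 gene of this list that differed from each. None of the 10 phosphate starvation, 10 salicylic acid and defence, 7 iron deficiency or 6 heat shock genes tested differed from each set. All 10 phosphate starvation genes were, however, lower in the line labelled AtC3H3 OX than in the untreated AtC3H26 line, by a median of -1.43. In that comparison 542 of the 20056 genes tested were called lower. Of the 18 photosynthesis genes, 8 were lower and 1 was higher than WT set 2 and none passed against WT set 1, with medians of -0.26 and -0.03.

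The 21 genes that the study lists for salt-treated seedlings were chosen on other libraries of the same line. Of these, 12 passed the filter in the untreated libraries, where PI was higher and DIN10 and ICL were lower than each WT set. Of the 12, 4 had both untreated libraries of the line above and 2 had both below all WT libraries, beside 10.4% and 14.3% of all genes. Of the 33 genes that differed from each untreated WT set, 19 had the same direction with NaCl, as had 6584 of the 12529 genes whose untreated differences from the 2 sets agreed in sign. With NaCl, 5 of the 33 passed in the same direction, namely PI, DIN10, BCB, ICL and BGLU21, and AT2G36630 passed in the opposite direction. Over all genes tested, 0.893% passed there. PI, DIN10 and ICL are among the 21 genes that the study lists from these NaCl libraries.

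Some calls came from short genes that were listed at 0 in whole groups, for which no fold change is given. AT2G07684, a protein-coding gene of 111 bp on chromosome 2, had 40.8 and 39.4 FPKM in the 2 untreated AtC3H3 OX-labelled libraries, and its value was 0 in the other 12, including those of the same line with NaCl. AT3G13403, of 290 bp, had 2.26 and 2.08 FPKM in these 2 libraries and likewise had a listed value of 0 in the other 12. Both therefore separated the untreated libraries of the line from its NaCl libraries as well as from WT. The small nucleolar RNA gene AT1G08937, of 133 bp, had 18.3 and 8.74 FPKM in the untreated line. It was listed at 0 in the 4 untreated WT libraries and at 24.3 and 0 FPKM in WT with NaCl. AT4G39361, of 120 bp, was listed at 0 in the untreated line and at 25, 29.9, 34 and 20 FPKM in untreated WT. With NaCl it was again at 0 in the line, but at 32.8 and 0 FPKM in WT. In the untreated AtC3H26 line it was at 0 and 30.3 FPKM. An entry named trnS, for a serine transfer RNA and 1 of 3 entries of that name, was listed at 0 in the untreated libraries of both lines. It was at 1953, 4535, 1705 and 694 FPKM in untreated WT. With NaCl, trnS was at 786 and 4546 FPKM in the line labelled AtC3H3 OX and at 0 and 1052 FPKM in the AtC3H26 line. AT1G08937, AT4G39361 and trnS were thus each also listed at 0 and well above 0 in replicates of the same group, whereas AT2G07684 and AT3G13403 were not. Across all 52 tested small nucleolar RNA genes, 1 was higher and 1 was lower than each WT set. Of the 725 tested long noncoding RNA genes none differed from each set, with 16 higher and 6 lower than WT set 1 (0.698% and 1.32% of all genes) and 54 higher and 43 lower than WT set 2 (8.01% and 5.42%). AT1G69140, a transcribed pseudogene, reached 0.419 and 0.173 FPKM in the line, against 2.31 and 3.17 in WT set 1 and 8.75 and 9.83 in WT set 2 (adjusted p = 0.031 for each set, limma). Its call was lost under 8 of 11 alternatives.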

How the data were processed

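Per the methods, reads were trimmed and aligned with TopHat to TAIR10, and the authors deposited FPKM per gene from Cufflinks, 1 file a library, with no read counts and before the quantile normalization named in the methods. Listed names were matched to the RefSeq table of TAIR10.1 (37308 of 37980, 98.2%), and genes whose name several genes share were not analysed as list members. Differences were tested with limma 3.58.1 (trend) in R 4.3.3 on log2(FPKM + 1). A gene entered if 2 or more of the 6 libraries reached 1 FPKM, with Benjamini-Hochberg adjustment over all 20056 genes. The same genes were used for the NaCl libraries and the AtC3H26 line. This scale understates fold changes of genes near 1 FPKM. The fitting code was tested on simulated data. Libraries were grouped by label. Named genes were AtC3H3 and AtC3H26, PI, DIN10 and 5 listed neighbours a side, all pooled calls, up to 12 protein-coding and 3 noncoding genes a direction with the largest smaller difference from the WT sets (at least 5 FPKM in the higher group, no overlap), up to 4 members a list, and the 21 genes of the study. Other named list members, the triterpene clusters and the remaining root genes were chosen after their values were seen. All members and lists were chosen with earlier results of these data known. Alternatives were a pseudocount of 0.1, no filter, 1 FPKM in every library, quantile normalization, a replicate block, other groupings of the fit and leaving out each library.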

Additional observations from a re-analysis of the deposited data

Results flagged for a closer look

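In 6 genes the libraries labelled AtC3H3 OX lay on one side of all untreated WT libraries and on the other side of both WT libraries with NaCl, and the difference between the treatments was not tested in any of them. AT2G36630 was higher untreated (26.8 and 27.3 FPKM against 12 to 17.7 FPKM) and lower with NaCl (59.2 and 58.4 FPKM against 80.5 and 77.3 FPKM, difference -0.42, adjusted p = 0.029 from limma). DIN11, a dark-inducible oxygenase gene, was at 1.49 and 2.29 FPKM against 0.809 to 1.04 FPKM untreated and at 5.02 and 4.69 FPKM against 11.7 and 11.8 FPKM with NaCl (difference -1.12, adjusted p = 0.027 from limma). GGCT2;1 was lower untreated and stood at 9.49 and 6.71 FPKM against 3.8 and 4.41 FPKM with NaCl (difference 0.82, adjusted p = 0.12 from limma). The differences with NaCl were small for AT3G12320 (-0.068), DOX1 (0.12) and AT1G69140 (0.12), none of which passed the test there.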

How the results depend on the processing

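Against both WT sets pooled, the 9 calls became 14 with no filter on low values, 5 with the replicate block, 1 with 1 FPKM in every library, 1577 with the WT sets as 2 groups and 2521 with all 14 libraries in 1 fit. Against WT set 1, the 405 calls became 50 with no filter and 681 with 1 FPKM in every library. Against WT set 2, the 2695 calls became 1769 with no filter and 4669 with all 14 libraries in 1 fit. For a difference from each WT set, the 33 calls became 18 with no filter, 11 with the replicate block, 82 with 1 FPKM in every library and 207 with all 14 libraries. The 1824 calls between the WT sets became 1150 with no filter. The 1562 calls between the lines became 957 with the replicate block, and the 179 calls with NaCl became 93 with the replicate block and 56 with no filter. Leaving out each library gave 3 to 7 calls pooled, 11 to 34 against WT set 1, 466 to 3648 against WT set 2, 5 to 67 against each set, 376 to 1665 between the WT sets, 88 to 1530 between the lines and 1 to 10 with NaCl, where a lone library is assumed to vary like the other groups. With 1 FPKM in every library, 4 of 17 stress-responsive genes were lower than each WT set where none was before, and 1 gene each of the mRNA decay, aliphatic glucosinolate, indole glucosinolate and flowering time lists passed, while PI was not tested. The causes were not tested. The replicate numbers gave no pairing: the differences between replicates correlated at 0.08 between the line and WT set 1, -0.03 between the line and WT set 2 and 0.03 between the WT sets. For 134 genes named by the rule, 261 results against both or each WT set were repeated: 2795 alternative values kept their direction and side of the threshold, 222 lost the call, 194 gained one and 14 changed direction, none of them from a called result. In 30 of the 2795 the difference from each set was 0 because the WT sets disagreed in sign. The 14 came from 7 genes. RBCS1A was at 0.101 pooled with quantile normalization. Leaving out each library gave, pooled, -0.113 to 0.054 for AT5G20225, -0.068 to 0.031 for SPS1F, -0.043 to 0.503 for DIN9, -0.486 to 0.855 for AT5G25756, -0.266 to 0.119 for RTFL21 and -0.011 to 0.557 for AT1G79485, and for each set -0.024 to 0.484 for DIN9 and -0.336 to 0.705 for AT5G25756. The number of fragments is unknown, which limits what can be said of genes near 1 FPKM and of short genes listed at 0.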
